A study of Mus musculus with 4 samples.

Results

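The cells described here are Flt3+ Cd34+ progenitors of mouse bone marrow, taken from single-cell RNA libraries of Kit+ cells. They were chosen by their raw transcript counts. A unique molecular identifier, or UMI, is a tag that counts 1 captured RNA molecule. A member had at least 2 UMIs of Flt3 and at least 1 of Cd34, none of Hlf, Siglech or F13a1, fewer than 5 of Elane, and fewer than 3 each of Car1, Fcer1a and Cd79a. Barcodes under 1000 UMIs or under 500 genes, or with over 10% of UMIs from mitochondrial genes, were set aside first. Of the 38887 cells that this left in the Kit+ libraries, 496 met the rule. The series as a whole held 55216 such cells.

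All donor cells carried the CD45.2 form of the leukocyte antigen CD45, and they were sorted from marrow 10 weeks after transplantation. There were 3 Kit+ libraries, 1 for each genotype. The control library gave 231 members, the library labelled Mll3/4 deleted gave 9, and the library labelled Mll3/4SI gave 256. The labels do not expand SI, and they state neither the driver of the deletion, its timing, nor how many mice each library pooled. The other library of the series, of control B220lo cells, entered no comparison. With 1 library per genotype there is no replicate, so no difference could be tested. Intervals below are 95% intervals of counting error only, and counts from 1 library share its mice, sort and chip. The deleted set falls below 50 cells, and its values are given as those of 9 cells.

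Flt3 is the receptor for Flt3 ligand. It appears as haematopoietic stem cells become multipotent progenitors that have lost lasting self-renewal, and it marks the progenitors from which most early lymphoid cells arise. Such cells are known to carry low levels of transcripts of several lineages at once, a state called priming. Dntt, which encodes the terminal transferase that adds nucleotides at V(D)J joins, is an early lymphoid mark. Mpo, which encodes the azurophil granule enzyme myeloperoxidase, is an early myeloid one. MLL3 and MLL4, encoded by Kmt2c and Kmt2d, are histone H3K4 methyltransferases of COMPASS-like complexes that act at enhancers. The series title asks about the overlapping roles of MLL3 and MLL4 in self-renewal, myeloid identity and B-cell priming, and whether their enzyme function is needed.

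Members made up 1.94% (Clopper-Pearson interval 1.70 to 2.21) of control cells, 0.0603% (0.0276 to 0.115) of deleted cells and 2.12% (1.87 to 2.39) of SI cells. Most of the deleted library was Cd79a-rich B-lineage cells. Among cells with fewer than 3 Cd79a UMIs the shares were 1.95% of 11837 control cells, 0.768% of 1172 deleted cells and 2.12% of 12053 SI cells. A share of sorted cells is set by the gate and by the other cells in it, so a lower share does not show fewer progenitors in the marrow. The median member held 9282 control, 13815 deleted or 10073 SI UMIs. The summed members held 2322776, 120910 and 2884391 UMIs, so 1 UMI was worth 0.431, 8.27 and 0.347 CPM in turn. CPM, used throughout, are a gene's UMIs over all UMIs of the same cells, scaled to the customary common total. No member had an immunoglobulin contig in the deposited tables, and no member barcode occurred among the members of another library. Among all filtered cells of the other libraries, B220lo included, 12 control, 1 deleted and 9 SI member barcodes did occur. With a Scrublet doublet score of at least 0.25 there were 3, 2 and 5 members. Xist was at 549.8 CPM in control members, 0 in deleted members and 623.0 CPM in SI members, whereas UMIs of the Y-linked Ddx3y, Kdm5d and Eif2s3y were found in deleted members alone. Sex and genotype therefore cannot be told apart for the deleted library.

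The rule removed different cells from each library. Flt3 with Cd34 was met by 1186 control, 78 deleted and 1318 SI cells. Of these, Hlf, a stem-cell transcription factor, removed 43.9%, 41.0% and 58.8%. Elane, neutrophil elastase, removed 43.6%, 39.7% and 29.1%, and F13a1, a monocyte-line gene, removed 41.3%, 41.0% and 18.1%. Fcer1a, a mast-cell and basophil receptor chain, removed 0.927% of the control, none of the 78 deleted and 10.1% of the SI cells. Cd79a, a chain of the B-cell receptor, removed 35 of the 78 deleted cells and 1 cell in each of the other libraries. What remained is thus not the same slice of the Flt3+ Cd34+ cells in each genotype. Members with exactly 2 Flt3 UMIs, the lowest number allowed, were 83 of 231, 3 of 9 and 124 of 256. Just outside, 181, 5 and 281 cells had 1 Flt3 UMI and otherwise met the rule.

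The label was checked against markers. Summed over the members, Flt3 stood at 375.0, 314.3 and 282.6 CPM in control, deleted and SI members, and Cd34, a sialomucin of early progenitors, at 622.1, 578.9 and 631.3 CPM. These values follow from the rule. T and NK markers were at 0 in all 3 libraries. Neutrophil markers, Elane among them, were at 143.8, 33.1 and 171.3 CPM, and 9 late neutrophil genes together at 23.7, 8.27 and 17.3 CPM. Monocyte markers were at 76.2, 41.4 and 248.6 CPM, and plasmacytoid dendritic markers at 198.0, 289.5 and 290.5 CPM. Of the latter, Siglech was excluded by the rule and Ly6d had no UMI in control or SI members. Bst2, which is also in the interferon-response set described below, made up 198.0, 272.9 and 290.5 CPM. The sum therefore does not show a plasmacytoid dendritic trait. B-lineage markers were at 53.0, 165.4 and 48.5 CPM, and 3 of the 9 deleted members held a Cd79a UMI. Mast and basophil markers were at 78.8 CPM in control, 16.5 in deleted and 438.6 in SI members.

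Of the targeted genes, Kmt2c (chr5:25271798-25498783 on the minus strand, mm10) was read at 73.2 CPM in control, 33.1 in deleted and 84.2 in SI members. Kmt2d (chr15:98831669-98871204, minus strand) was read at 29.7, 8.27 and 23.9 CPM. The deleted values rest on 4 UMIs of Kmt2c and 1 of Kmt2d. Their ratios to control were 0.452 (0.122 to 1.18) and 0.278 (0.00695 to 1.60). The kit reads the 5′ end of transcripts, so exons lost farther along would not show, and these counts do not check the labels. In SI members, neither gene passed a 2-fold difference, with ratios of 1.15 (0.942 to 1.41) and 0.805 (0.568 to 1.14).

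The early lymphoid mark Dntt stood lowest in the SI members and highest in the 9 deleted ones. Dntt (chr19:41029275-41059525, plus strand) was at 331.5 CPM in control, 1075 in deleted and 108.2 in SI members, and was read in 92 of 231, 8 of 9 and 64 of 256 cells. The SI level was 0.326 times control (0.285 to 0.373). The deleted level was 3.24 times control (2.67 to 3.91), but it was uneven. In order of depth, the 9 deleted cells held 0, 2, 5, 69, 6, 2, 39, 6 and 1 Dntt UMIs, and 83.1% of all came from a pair of cells. Without the highest cell of each library the deleted ratio was 1.78 (1.35 to 2.31), and the SI ratio 0.312.

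Satb1, a chromatin organiser that is known to favour lymphoid fates in early progenitors, followed the same order, at 135.6, 206.8 and 56.2 CPM. Its SI level was 0.414 times control (0.341 to 0.502), and the interval of the deleted ratio, 1.52 (0.972 to 2.29), included 1. Lax1, a lymphocyte adaptor, was at 23.2, 0 and 7.97 CPM, and Notch1, the receptor that drives the T-cell fate, at 37.9, 33.1 and 24.96 CPM. Both were lower in SI members, at 0.343 times (0.201 to 0.568) and 0.659 times (0.476 to 0.910) control. Il7r, the receptor chain that early B and T cells need, was almost unread in control and SI members, at 2.58 and 0.693 CPM. In the deleted members it reached 99.2 CPM, with 10 of its 12 UMIs in 1 cell.

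Other early lymphoid regulators hardly differed. Ikzf1, the Ikaros factor, was at 204.5, 215.0 and 207.7 CPM. Mef2c, which is known to back lymphoid against myeloid fate, was at 245.4, 322.6 and 261.8 CPM, and Tcf3, the E2A gene, at 96.9, 99.2 and 107.5 CPM. Each of the 6 ratios to control had an interval that included 1. Tcf4, an E protein, was slightly lower in SI members, at 0.789 times control (0.677 to 0.919).

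Over the list of 18 early lymphoid genes, the sum was 1708 CPM in control, 2862 in deleted and 1349 in SI members, or 1.68 times (1.497 to 1.87) and 0.790 times (0.756 to 0.826) control. Dntt, at 331.5 CPM in control and 108.2 CPM in SI members, made up most of the SI difference, so the SI ratio does not describe the whole list. Genes with a mean of at least 20 CPM over the 3 sums, 6811 in all, were compared on the log2(CPM + 1) scale. Of the 11 early lymphoid genes among them, none was at least 2-fold higher in SI members and 3 (Dntt, Satb1 and Il7r, the last on 2 against 6 UMIs) were at least 2-fold lower, against 0.837% and 0.455% of all compared genes. Only 2 of the 3, Dntt and Satb1, had an interval that excluded a ratio of 1. In deleted members 2 (Dntt and Il7r) were at least 2-fold higher and none lower, against 4.82% and 10.6% of all. Il7r, at 2.58, 99.2 and 0.693 CPM in control, deleted and SI members, reached the mean of 20 CPM only through the deleted members. Its place in these counts was therefore set by the filter and supports nothing. Without it, Dntt remains in the deleted count and Dntt and Satb1 in the SI count. The median log2 difference of the 11 was −0.34 for SI and 0.39 for deleted members, beside 0.05 and 0.01 over all compared genes. Both comparisons use the same control members. In the deleted members a pair of cells held 51.4% of the list's UMIs, and without the highest cell of each library the deleted ratio of the sum was 1.28 (1.11 to 1.46). Over all 18 genes the SI median was −0.11 and the deleted median 0.40, and the latter turned to −0.09 without the 3 members that held Cd79a and to −0.01 without the 2 with a doublet score of at least 0.25.

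**Figure D1:**
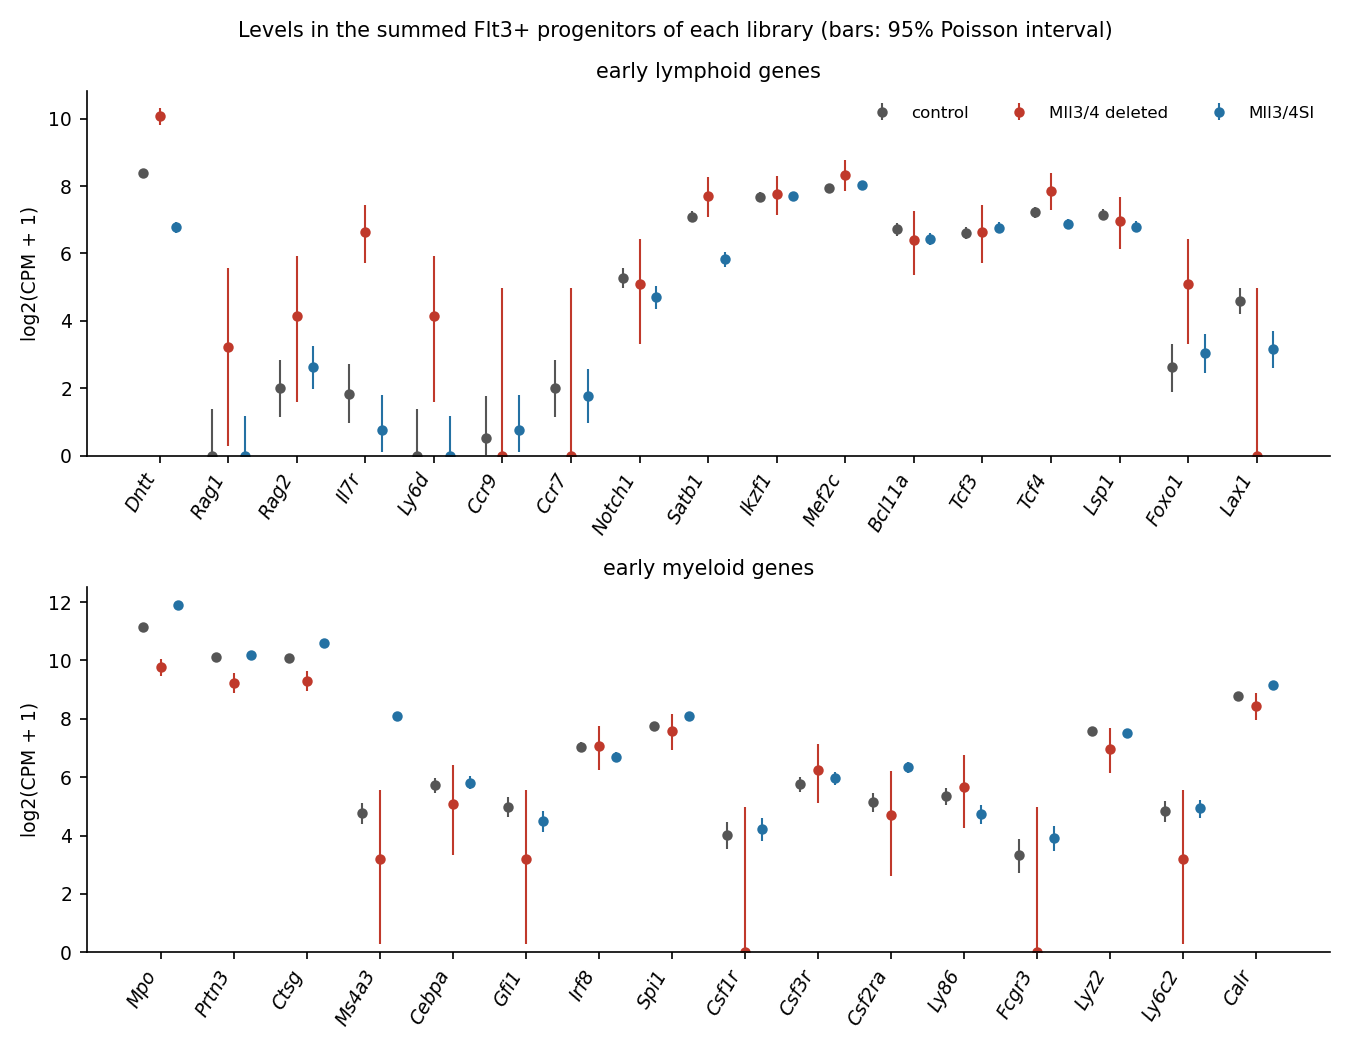
Level of early lymphoid genes (upper panel) and early myeloid genes (lower panel) in the summed members of the control, Mll3/4 deleted and Mll3/4SI libraries, as log2(CPM + 1), with bars for the 95% Poisson counting interval. Dntt and Satb1 are lower in the SI members than in the control and deleted members, and Ms4a3 and Mpo are higher. Some other genes of each panel, such as Notch1 and Ctsg, have the same order. The deleted values have wide bars because 9 cells were summed.

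Genes of B-lineage commitment were scarce. Pax5, a factor that defines committed B cells, had no UMI in any member, where 3 UMIs would be 1.29 CPM in control, 24.8 in deleted and 1.04 in SI members. Ebf1, the factor that specifies B cells, was at 3.87, 8.27 and 0.347 CPM. The 16-gene list summed to 152.8 CPM in control, 363.9 in deleted and 150.5 in SI members, with ratios of 2.38 (1.70 to 3.26) for deleted and 0.984 (0.854 to 1.14) for SI. Without the highest cell of each library the deleted ratio was 1.96 (1.32 to 2.82). Among the deleted cells Blnk, an adaptor of pre-B receptor signalling, was at 57.9 CPM against 4.31 in control. Mzb1, a chaperone of B cells, was at 41.4 CPM against 0. A single deleted cell held 57.1% of the Blnk UMIs, and a single cell 60% of the Mzb1 UMIs. Erythroid cells of the deleted library held the same 16 genes at 1639 CPM, above the 363.9 CPM of the members. They were defined here by at least 3 Car1 UMIs and no Flt3, without a limit on Cd79a. In the Hlf+ cells described below, which had the members' Cd79a limit, the list was at 317.3 CPM in deleted and 117.8 in control. In the Mpo+ Cd34+ cells, limited alike, it was at 348.8 and 106.1 CPM. The higher level was thus not particular to the members. The part of other cells' RNA in the value of the deleted members was not tested. The list of T, NK and innate lymphoid genes was at 24.1, 8.27 and 43.3 CPM, with no gene reaching the mean of 20 CPM.

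The early myeloid mark Mpo ran the other way. Mpo (chr11:87793581-87804413, plus strand) was at 2245 CPM in control, 868.4 in deleted and 3781 in SI members. The SI level was 1.68 times control (1.63 to 1.74) and the deleted level 0.387 times (0.316 to 0.469). The median cell held 12, 8 and 27 Mpo UMIs and the highest 156, 31 and 253, so the libraries overlapped cell by cell.

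Ctsg, the granule protease cathepsin G, was at 1094, 628.6 and 1531 CPM, and the SI ratio was 1.40 (1.33 to 1.47). Prtn3, proteinase 3, was at 1121, 603.8 and 1176 CPM, with an SI ratio of 1.05 (0.997 to 1.11). Azurophil granule genes were thus not all higher in SI members. Of the early myeloid genes compared, the one that differed most in SI members was Ms4a3, a membrane protein known to mark granulocyte and monocyte progenitors. It was at 26.3 CPM in 42 control cells, 8.27 CPM in 1 deleted cell and 274.2 CPM in 130 SI cells. The SI ratio was 10.4 (8.04 to 13.8). Csf2ra, the α chain of the GM-CSF receptor, was at 34.4, 24.8 and 80.1 CPM, an SI ratio of 2.33 (1.80 to 3.04).

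The transcription factors of the list differed less. Spi1, which encodes PU.1, was at 212.2, 190.2 and 271.5 CPM (SI ratio 1.28, interval 1.14 to 1.43). Cebpa, needed for granulocyte and monocyte formation, was at 52.1, 33.1 and 55.1 CPM (1.06, 0.830 to 1.35). Irf8, a factor of monocytes and dendritic cells, was at 129.6, 132.3 and 102.6 CPM (0.792, 0.672 to 0.933), and so stood lower in SI members than in control.

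The 16 early myeloid genes summed to 5718 CPM in control, 3101 in deleted and 8187 in SI members, or 0.542 times (0.488 to 0.601) and 1.43 times (1.40 to 1.46) control. Of the 14 compared, 2 were at least 2-fold higher in SI members, Ms4a3 and Csf2ra, against 0.837% of all compared genes, and none was lower. In deleted members 4 of 14 were at least 2-fold lower, against 10.6% of all, and only 1 of the 4 had an interval that excluded a ratio of 1. The median log2 difference was 0.15 for SI and −0.62 for deleted members.

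To compare cells of unequal depth, each was thinned at random to 4000 UMIs. This kept 215 control, 9 deleted and 247 SI members and left out 16, 0 and 9. At least 1 UMI among Dntt, Rag1, Rag2, Il7r, Ccr9 and Ly6d was found in 34.9% (28.5 to 41.7) of control, 77.8% (40.0 to 97.2) of deleted and 17.4% (12.9 to 22.7) of SI members. At least 3 UMIs among Mpo, Prtn3, Ctsg and Ms4a3 were found in 87.4% (82.3 to 91.6), 66.7% (29.9 to 92.5) and 93.1% (89.2 to 95.9). The deleted myeloid share was 85.71% without the 2 members with a doublet score of at least 0.25, and 83.33% without the 3 that held Cd79a. It thus does not stand apart from the control share. Lymphoid UMIs were thus seen in fewer SI than control members, with intervals that do not meet, while the myeloid shares of control and SI, both near the top of the scale, had intervals that overlap. With the rule itself read at 4000 UMIs the lymphoid shares lay closer, at 32.59% of 135 control and 25% of 160 SI members. Only 89 and 81 of these cells were also members by raw counts. Intervals for this reading are not given, so it does not show the control and SI shares apart. Nearly all lymphoid calls came from Dntt, with 34.4%, 66.7% and 15.8% of thinned members. Without thinning Dntt was in 39.8% of control and 88.9% of deleted members, and in 64 of the 256 SI members.

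Most cells with lymphoid UMIs also held myeloid UMIs. Both were present in 25.6% of control, 44.4% of deleted and 15.8% of SI members, beside 30.5%, 51.9% and 16.2% from the product of the separate shares. Cells with lymphoid UMIs alone were 20 of 215 in the control (9.30%), 3 of 9 in the deleted and 4 of 247 in the SI library (1.62%, 0.443 to 4.09). Among members with lymphoid UMIs, the myeloid mark was passed by 73.3% (61.9 to 82.9) in the control and 90.7% (77.9 to 97.4) in the SI library. Of members without lymphoid UMIs, 133 control cells passed it and 7 did not, and 93.6% of the SI cells passed.

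**Figure D2:**
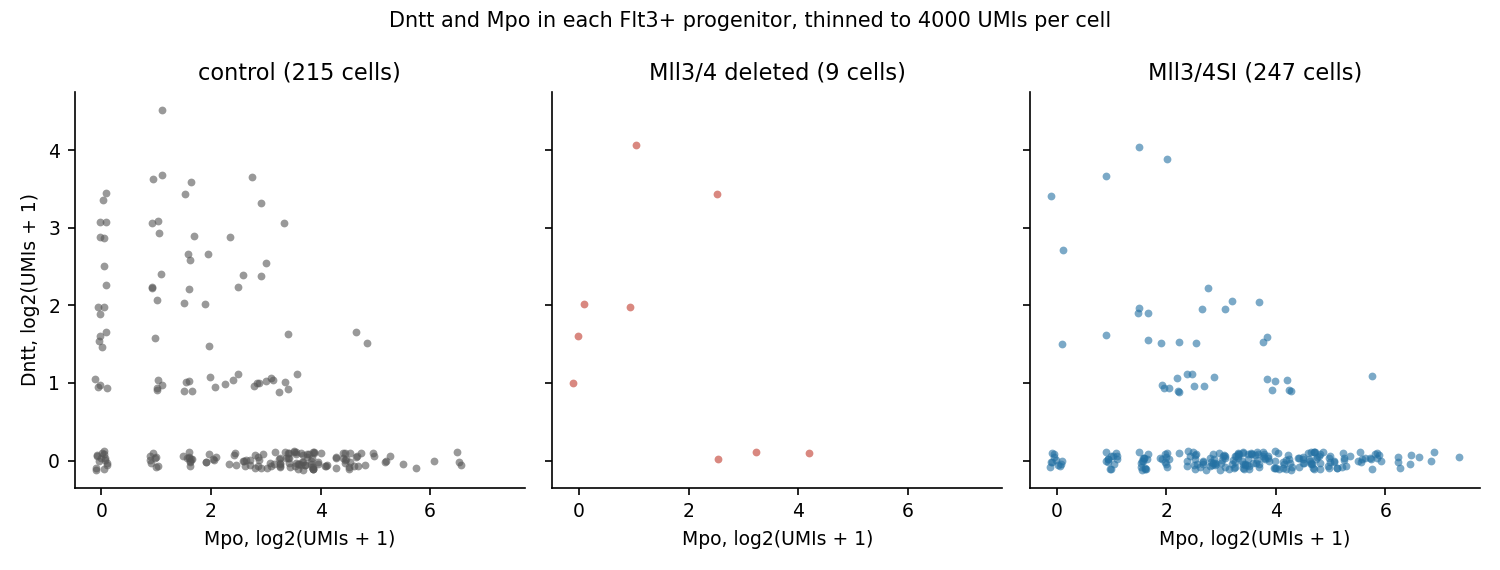
Dntt against Mpo in each member thinned to 4000 UMIs, as log2(UMIs + 1), in 215 control, 9 Mll3/4 deleted and 247 Mll3/4SI cells; points are spread slightly so that equal counts can be seen. The SI cells lie mostly along the axis of 0 Dntt UMIs, with Dntt in 15.8% of them against 34.4% of control cells, and cells with much Dntt tend to have little Mpo.

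Cells that should lack a gene give a background level, though the source of such UMIs was not tested. In erythroid cells with at least 3 Car1 UMIs and no Flt3, thinned alike, lymphoid UMIs were in 0.311% of control and 0.520% of SI cells, but in 29.4% of 85 deleted cells. Median depth before thinning was 16571.5, 14693 and 16870.5 UMIs. The lymphoid shares of the control and SI members stand far above this level. For the deleted members the share was 77.8% (40.0 to 97.2), and its interval meets that of the deleted erythroid cells, 20.02 to 40.3%. The erythroid cells had no limit on Cd79a, unlike the members. Of the Flt3-negative sets described below, which had that limit, lymphoid UMIs were in 10.0% (4.42 to 18.8) of deleted Mpo+ Cd34+ cells. In deleted Hlf+ cells the share was 10.3% (2.19 to 27.4). In a second random draw the share of the deleted members was 66.67%, and without the 2 members with a high doublet score 71.43%. Their Dntt level of 1075 CPM is above the 130.9 CPM of deleted erythroid cells and below the 1351 CPM of deleted Cd79a-rich B-lineage cells. The part of free RNA and of mixed droplets in it was not tested. Myeloid UMIs were in 19.8%, 2.35% and 26.1% of erythroid cells, well under the members. Ms4a3 was in 10.2% of control members and in 13.2% of control erythroid cells, so the control share did not exceed this background, whereas in the SI library it was in 37.7% of members and 17.7% of erythroid cells.

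Among control members, cells with a Dntt UMI (74 of 215 at 4000 UMIs) were compared with cells without one (141). Genes were ranked in the control, so their control values are a description, and the SI members (39 against 208) are cells that the ranking did not use. Mpo was at 851.4 CPM with Dntt and 3167 CPM without, a ratio of 0.269. In SI members the ratio was 0.416 (0.368 to 0.469). Satb1 was 2.15 times as high with Dntt in the control and 2.84 times (1.45 to 5.39) in SI members. Myl10, a myosin light chain gene, showed 3.27 times in control and 3.39 times (1.87 to 6.04) in SI members. Dach1, a transcriptional repressor gene, was at 0.18 times in both. Of the 8 genes ranked highest with Dntt and the 8 ranked lowest in the control, all 16 lay on the same side in SI members, with an interval excluding 1 for 5 and 5. Over all genes with at least 50 UMIs in the control split, 50.3% of those higher with Dntt and 60.7% of those lower lay on the same side in SI members. One of the 16, Cxcl10, had all its control UMIs in 1 cell. Agbl4, at 13.3 times in control, was among those whose SI interval included 1, at 2.13 times (0.678 to 5.82).

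The same held when cells were split by Mpo, at least 5 UMIs against 0 or 1 (121 against 56 in control, 175 against 29 in SI). Ctsg was 9.56 times as high with Mpo in the control and 6.59 times in SI members, and Prtn3 2.78 and 3.08 times. Dntt was lower with Mpo, at 0.18 times in control and 0.17 times in SI members. Car2, a carbonic anhydrase gene of early erythroid cells, was lower too, at 0.31 and 0.40 times. Of the 8 genes ranked highest and the 8 ranked lowest, 8 and 6 lay on the same side in SI members, against 60.9% and 52.4% over all genes of that split. The stem-cell list was lower with Mpo (0.69 and 0.55 times) and also lower with Dntt (0.70 and 0.68 times).

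Flt3 count orders these cells further, although deeper cells also yield more Flt3 UMIs. In control, Dntt was at 77.6 CPM in the 181 cells just outside the rule with 1 Flt3 UMI, then 197.2, 257.4 and 587.2 CPM in members with 2, with 3 or 4, and with 5 or more. In SI members the steps were 33.3, 57.5, 86.5 and 275.3 CPM, below control at each step. Satb1 had the same order, from 48.3 at 1 UMI to 201.8 CPM at 5 or more in control and from 24.4 to 106.3 CPM in SI cells. Median depth over the same steps was 7346 to 11051.5 UMIs in control and 9296 to 12234 in SI cells, and its part in the steps was not tested.

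Mpo had no such order. It was at 2282, 2541, 2337 and 1780 CPM over the steps in control and 3910, 4023, 3899 and 2956 CPM in SI cells, above control at each. Cpa3, mast-cell carboxypeptidase A, was at 141.3, 97.3, 24.1 and 13.7 CPM over the steps in control and at 706.6, 477.8, 413.9 and 58.8 CPM in SI cells. Ms4a3 ran from 95.1 down to 13.7 CPM in control and from 482.3 to 94.9 CPM in SI cells. Of the 4 steps, the one with 5 or more Flt3 UMIs had the highest Dntt and Satb1 and the lowest Cpa3 and Ms4a3 in both libraries. These steps use the count that also chose the members and are a description.

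**Figure D3:**
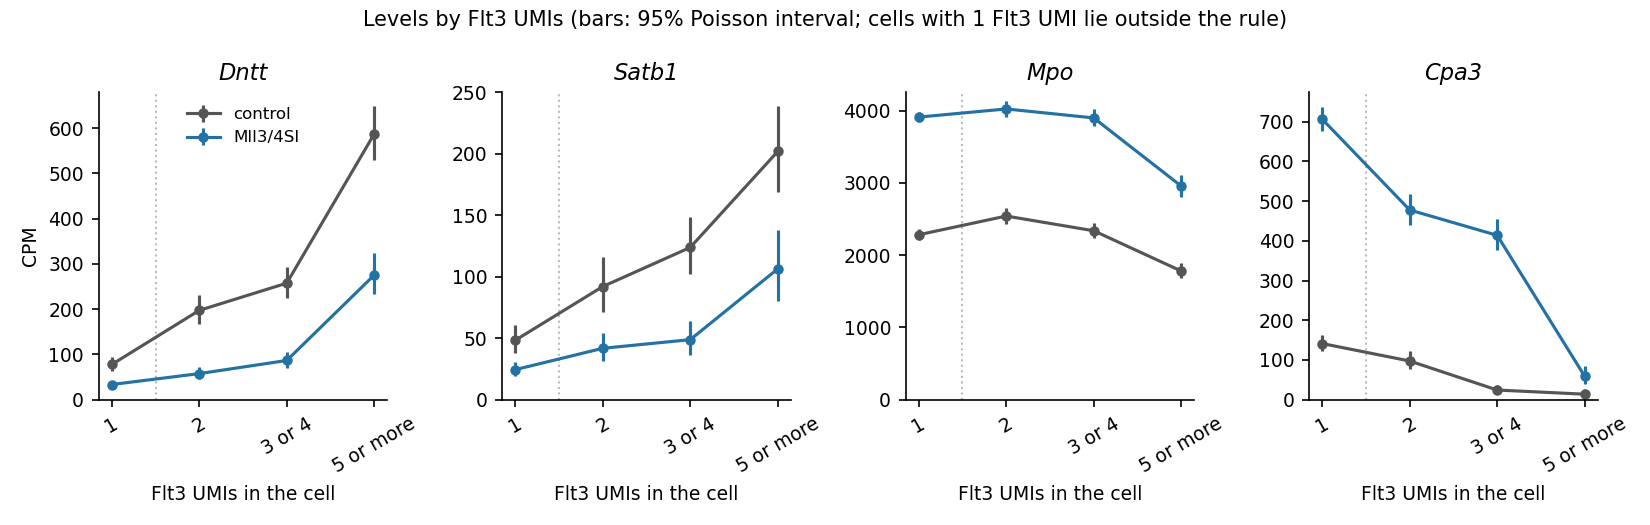
Level in CPM of Dntt, Satb1, Mpo and Cpa3 in cells with 1 Flt3 UMI (outside the rule) and in members with 2, 3 or 4, and 5 or more, for the control and Mll3/4SI libraries, with 95% Poisson counting intervals. Dntt and Satb1 are higher and Cpa3 lower at more Flt3 UMIs in both libraries, and at each step the SI values of Dntt and Satb1 lie below control and those of Mpo and Cpa3 above it.

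Mast and basophil genes were the list with the largest SI ratio. The 8 genes summed to 87.4 CPM in control, 16.5 in deleted and 453.1 in SI members, 5.18 times control (4.47 to 6.04). Cpa3 accounted for most of it, at 44.8, 0 and 377.2 CPM, with 34, 0 and 116 cells. Mcpt8, a basophil protease, was at 22.4, 16.5 and 43.0 CPM. At 4000 UMIs Cpa3 was in 34.0% of SI members and 22.1% of SI erythroid cells, and in 10.2% and 8.87% in the control, so Cpa3 was also more frequent in SI cells of another lineage, and the part of RNA from other cells in the result was not tested. In CPM, SI members stood at 377.2 and SI erythroid cells at 139.1. Monocyte genes were also higher, at 108.9, 66.2 and 272.2 CPM over 8 genes. Ms4a6c, a membrane gene of the monocyte line, made up most of this, at 70.6, 33.1 and 225.0 CPM (SI ratio 3.19, 2.68 to 3.81). Ccr2, the monocyte chemokine receptor, was at 5.60, 8.27 and 22.5 CPM.

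Some antigen presentation genes were lower in SI members, although the 13-gene dendritic and MHC class II list summed to much the same, at 1433 CPM in control, 1117 in deleted and 1303 in SI members. Cd74, the MHC class II invariant chain, was at 108.9 CPM in control, 8.27 in deleted and 31.9 in SI members. H2-Aa was at 85.2, 33.1 and 23.6 CPM, and H2-Eb1 at 62.0, 8.27 and 17.3 CPM; both encode class II chains. Of 8 compared genes of the dendritic and MHC class II list, these 3 were at least 2-fold lower in SI members and none was higher, against 0.455% and 0.837% of all compared genes. A single control cell held 43.1% of the Cd74 UMIs and 39.4% of the H2-Aa UMIs. Without the highest cell of each library the SI ratios of Cd74, H2-Aa and H2-Eb1 were 0.296, 0.322 and 0.256, near the 0.293, 0.277 and 0.280 with all cells. H2-Ab1 was at 141.2, 107.5 and 79.7 CPM (SI ratio 0.565, 0.475 to 0.670).

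Stem-cell genes were mixed. The 14-gene list, which leaves out Hlf because the rule used it, summed to 886.9, 868.4 and 1115 CPM. Mecom, a factor of long-term stem cells, was lower in SI members, at 72.8, 82.7 and 43.7 CPM (ratio 0.600, 0.473 to 0.761). Angpt1, angiopoietin 1, was higher, at 491.7, 397.0 and 750.6 CPM (1.53, 1.42 to 1.64). Meis1, a homeobox cofactor, was at 132.2, 99.2 and 134.2 CPM. Ly6a, the Sca-1 antigen, was at 46.1, 157.1 and 57.9 CPM, but 12 of its 19 deleted UMIs were in 1 cell, and without the highest cells the deleted ratio was 1.51 (0.593 to 3.24).

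None of 10 surface genes of multipotent progenitors was past 2-fold in SI members. Itga4, an integrin for marrow homing, was at 180.0, 74.4 and 270.4 CPM, an SI ratio of 1.503 (1.33 to 1.70), and Kit at 263.5, 148.9 and 298.2 CPM. None of 17 compared genes of cytokine receptors and signalling was past 2-fold in SI members. The erythroid and megakaryocyte list summed to 491.2, 248.1 and 367.1 CPM, and its Car2 was at 158.9, 33.1 and 58.9 CPM, 0.371 times control in SI members (0.308 to 0.446). Pf4, platelet factor 4, was at 18.5, 0 and 3.12 CPM.

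Cell-cycle genes were level in SI members, with S-phase genes at 2944, 3283 and 3036 CPM and G2/M genes at 2026, 3623 and 2046 CPM, and none of 40 past 2-fold. In the deleted members 8 of 20 G2/M genes were at least 2-fold higher, against 4.82% of all compared genes. Of the 438 G2/M UMIs of the deleted members 91.3% came from a pair of cells. Leaving out the highest cell of each library gave a deleted ratio of 1.17 in place of 1.79.

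Of the 6811 compared genes, 57 were at least 2-fold higher and 31 lower in SI than in control members. Among those with the highest ratios was Scin, which encodes the actin-severing protein scinderin, at 6.46 CPM in control, 0 in deleted and 125.2 CPM in SI members (ratio 19.4, 11.6 to 34.99). Clec10a, a C-type lectin gene, was at 5.60, 8.27 and 59.6 CPM, and Igfbp7, a secreted binding protein, at 4.31, 0 and 57.6 CPM. Serpina3i was not read in control or deleted members and was at 100.5 CPM in 133 SI cells, at least 77.8-fold higher against a floor of 3 UMIs in the summed control members. Its neighbour in sequence Serpina3g was lower, at 126.1, 91.0 and 24.6 CPM. The Serpina3 genes are similar copies, and how reads were assigned between them was not tested, so each value is uncertain. Control members held 293 Serpina3g UMIs beside no Serpina3i UMI. Over all 10, the sum was 133.5, 91.0 and 141.1 CPM, an SI ratio of 1.06 (0.910 to 1.23).

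Among the genes named by rule, the lowest SI ratio was that of Nkg7, a granule membrane protein gene known from NK and cytotoxic T cells. It was at 320.3 CPM in 205 control cells, 132.3 CPM in 4 deleted cells and 38.8 CPM in 77 SI cells, a ratio of 0.121 (0.0985 to 0.148). In the deleted members 10 of the 16 UMIs were in 1 cell, and the deleted ratio was 0.413 with all cells and 0.193 without the highest cell of each library. T and NK markers were at 0 in all members. Hmga2, a chromatin protein of fetal and early progenitors, differed in opposite directions, at 43.5 CPM in control, 223.3 in deleted and 7.63 in SI members. Agbl4, a carboxypeptidase gene, was at 56.4, 0 and 15.3 CPM.

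In deleted members, 328 genes were at least 2-fold higher and 725 lower. With 1 UMI worth 8.27 CPM, only 141 and 164 of them had an interval that excluded 1 (2.07% and 2.41% of all compared). These intervals count each UMI as independent and do not cover the spread between the 9 cells. Def8, a gene linked to lysosome positioning in bone-resorbing cells, gave the highest ratio among genes with at least 50 UMIs in the deleted members, at 58.1 CPM in control, 1183 in deleted and 47.8 in SI members, or 20.3 times control (16.0 to 25.9). It was read in 8 of the 9 cells, with 1, 2, 19, 35, 27, 0, 30, 12 and 17 UMIs in order of depth, and the ratio was 17.8 without the highest cell of each library. It was not particular to these cells: Def8 stood at 451.7 CPM in deleted erythroid cells and 1579 CPM in deleted B-lineage cells, against 56.8 and 27.0 CPM in control. Egfl7, a gene of a secreted protein known from blood vessels and early progenitors, was at 229.9 CPM in control, 595.5 in deleted and 135.6 in SI members, a deleted ratio of 2.59 (1.996 to 3.32). Genes not read in the deleted members included Apoe, apolipoprotein E, at 95.1 CPM in control and 57.2 in SI members, at least 3.83-fold lower against 3 UMIs in the summed deleted members. Anxa1, an annexin, was likewise at least 3.002-fold lower.

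Neighbouring populations show which of these differences were wider than the Flt3+ cells. Hlf+ cells had at least 2 Hlf UMIs and no Flt3, and Mpo+ Cd34+ cells had at least 10 Mpo UMIs, Cd34, and no Hlf or Flt3. The Hlf+ sets were unlike in make-up. Late neutrophil genes were at 1534 CPM in control and 74.0 CPM in SI Hlf+ cells, and erythroid and megakaryocyte genes at 1652 and 913.0 CPM. The part of this in the Hlf+ ratios below was not tested. Dntt was at 5.26 and 3.59 CPM in control and SI Hlf+ cells, and at 0.517 and 0.576 CPM in the Mpo+ Cd34+ ones, beside 331.5 and 108.2 CPM in the Flt3+ members. Satb1 was lower in SI Mpo+ Cd34+ cells too, at 0.368 times control (0.318 to 0.426), whereas in Hlf+ cells the ratio was 0.799 (0.560 to 1.14). Mpo was 1.60 times control in SI Hlf+ cells and 1.12 times in SI Mpo+ Cd34+ cells, where the cut itself uses Mpo. Ms4a3 had ratios of 2.31 (1.96 to 2.74) and 1.39 (1.36 to 1.41) there, both below the 10.4 of the Flt3+ members; whether the ratios differ between populations was not tested.

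Nkg7 and Cpa3 differed the same way in each population compared, and Cd74 did not. Nkg7 was at 0.134 times control in Hlf+, 0.228 times in Mpo+ Cd34+ and 0.206 times in erythroid cells. Cpa3 was at 4.03, 2.94 and 5.27 times control in the same 3 populations. Cd74 in SI cells was at 0.650 times control (0.541 to 0.781) in Hlf+ cells but at 1.75 times (1.45 to 2.14) in Mpo+ Cd34+ cells.

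**Figure D4:**
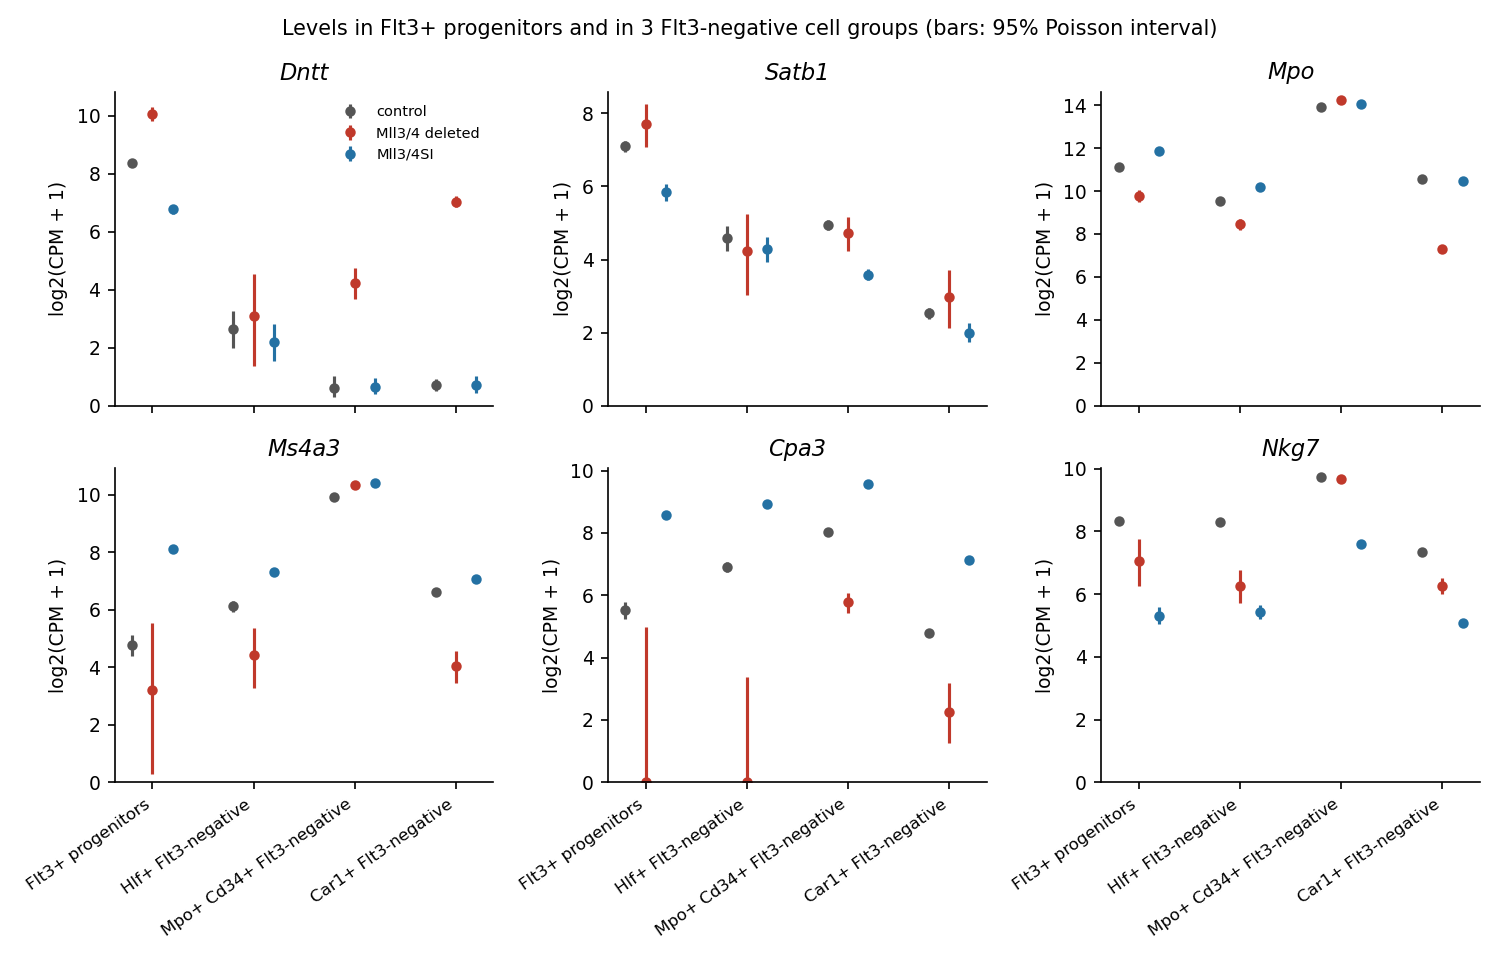
Level of Dntt, Satb1, Mpo, Ms4a3, Cpa3 and Nkg7 as log2(CPM + 1) in the Flt3+ members, Hlf+ Flt3-negative cells, Mpo+ Cd34+ Flt3-negative cells and Car1+ Flt3-negative erythroid cells of the 3 Kit+ libraries, with 95% Poisson counting intervals. Dntt in the control and SI libraries is high in the Flt3+ members alone among these populations, whereas Nkg7 lies lower and Cpa3 higher in the SI than in the control library in all 4.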

How the data were processed

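The members and all gene lists were chosen with earlier results of these data known. The authors made the UMI counts with Cell Ranger 7.1.0 against mm10, per the submitters' processing notes, and called cells before deposit. The contig tables they deposited hold counts of reads and UMIs per immunoglobulin contig. The kit was 10x 5′ v2, per the labels.

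Each member's UMI counts were summed per library and scaled to CPM. Ratios have exact conditional binomial intervals, levels Poisson intervals and shares Clopper-Pearson intervals, all at 95%. Since cells are not replicates, no p-value was computed. Genes with a mean of at least 20 CPM over the 3 Kit+ sums were compared as log2 differences with 1 CPM added, and a 2-fold difference was counted. Cells were thinned once to 4000 UMIs (seed 20), and alternatives that change only the set of members kept that draw. The split by Dntt or Mpo used genes with at least 50 UMIs in the control and 10 CPM added.

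Every list gene could be named, but the values of some list genes are not reported here. Beyond the lists, so could the 8 largest differences each way with at least 50 UMIs in the higher library, leaving out receptor segments, mitochondrial, ribosomal protein, Gm, Rik, X-inactivation, Y-linked and rule genes. No doublets were removed. Scrublet (scanpy 1.11.5) chose thresholds that marked 1166 control, 0 deleted and 1 SI barcodes, so it had not worked in the last 2, and a fixed score of 0.25 served as an alternative. The counting of genes past 2-fold and its intervals were tested on simulated data. Gene positions are those of GENCODE vM21 on GRCm38 (mm10). Python 3.11.15, numpy 2.4.6, scipy 1.17.1 and pandas 2.3.3 were used. Alternatives changed the cell filter, doublets, contigs, depth, Cd79a and Flt3 limits, added constant, scaling, gene filter and marks. Those with an interval excluding 1, with at least 3 Flt3 UMIs, with a second thinning draw, and with the highest cell left out were chosen after seeing the data.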

Additional observations from a re-analysis of the deposited data

Results flagged for a closer look

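The control library of B220lo cells, which no comparison used, also held cells that meet the rule. They were 9 of 16329 cells, or 0.0551% (Clopper-Pearson interval 0.0252 to 0.105). A count of 0 would allow up to 0.0184%. The 9 cells held a median of 17240 UMIs (10180 to 22533), against 3354 over the filtered cells of that library. Cd79a was read in 4 of them, and no doublet score was computed for this library. All 9 held Irf8, at 1268 CPM, and 6 each held Dntt, Ly6d, a lymphoid surface gene, and Ebf1. Mpo was read in 2 of them. Cd74 was read in 5, with 534 of its 540 UMIs in 1 cell, and 1 of the 9 had an immunoglobulin contig.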

How the results depend on the processing

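In every setting run, the SI median of the 18 early lymphoid genes stayed below 0 (−0.16 to −0.01) and that of the 16 early myeloid genes above 0 (0.08 to 0.25). The lymphoid and joint shares stayed higher, and the myeloid share lower, in control than in SI members. The deleted early lymphoid median, 0.40, was −0.09 with Cd79a at 0 and −0.01 without doublets. With the rule read at 4000 UMIs, members were 1.213% of control and 1.396% of SI cells. Lymphoid UMIs were then in 32.59% of control and 25% of SI members, and both kinds in 25.19% and 21.88%. Under the same reading the deleted counts were 644 higher and 1099 lower genes. Cd79a at 0 gave 502 higher deleted genes. Adding 10 CPM gave 170 higher and 477 lower deleted genes and 17 lower SI genes. Leaving mitochondrial and ribosomal protein genes out of the total gave 48 lower SI genes. A mean of 5 CPM, which admits more genes, gave 763 higher and 1810 lower deleted genes and 161 and 115 SI genes, and a mean of 50 CPM gave 82, 170, 18 and 12. Requiring an interval that excludes 1 gave 141 and 164 deleted genes. A myeloid mark of 1 UMI gave myeloid shares of 98.14% and 98.38% in control and SI, and 33.02% for both kinds in control. At 2000 UMIs the lymphoid, myeloid and joint shares were 25.33%, 74.67% and 12.66% in control, 11.76%, 85.49% and 8.235% in SI, and the joint deleted share was 11.11%. Without thinning, the myeloid and joint control shares were 97.4% and 40.69%, the lymphoid and joint deleted shares 100% and 88.89%, and the SI shares 29.69%, 98.44% and 28.91%. Where construction does not show the cause (fewer or more UMIs, genes or cells), the cause was not tested. Without the highest cells, Hbb-bt reversed, from 3.29 to 0.809 times control in deleted and from 1.68 to 0.2913 times in SI members. No paired analysis was possible because each group is 1 library. Among the shares, medians and gene counts, 38 values moved, all given above, and 169 stayed within the counting interval or within 1.5 times. Among single ratios without the highest cells, 7 moved, 2 reversed and 35 stayed. The 9 deleted cells limit every deleted value.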

Other observations

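Interferon-response genes, a set of 15 chosen after their values were seen, summed to 586.4 CPM in control, 1050 in deleted and 1204 in SI members. Since the choice used these values, its counts support nothing. In SI members 7 of the 13 with a mean of at least 20 CPM were at least 2-fold higher, against 0.837% of all compared genes, and the 15 had a median log2 difference of 1.52 for SI and 0.73 for deleted members. Isg15, a ubiquitin-like modifier, was at 24.5, 41.4 and 85.3 CPM, and Irf7, a regulator of type I interferon genes, at 18.5, 41.4 and 61.0 CPM.

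The heat-shock gene Hspa1a was not read in control or deleted members and was at 22.5 CPM in 34 SI cells, at least 17.4-fold higher against 3 UMIs in the control sum. Jun, an immediate early factor, was at 43.1, 24.8 and 84.2 CPM. The list of 12 immediate early and heat-shock genes that holds both was level, at 915.3, 959.4 and 905.9 CPM. Its SI ratio was 0.990 (0.934 to 1.05). Of its 6 compared genes, 3 lay above and 3 below control in SI members, and none was past 2-fold.

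The largest SI difference on the log2(CPM + 1) scale among the genes named by rule came from 1 cell. Hbb-bs, an adult β-globin gene, was at 2.58 CPM in control and 774.9 CPM in SI members, and 2221 of its 2235 SI UMIs were in a single cell. Without the highest cell of each library its ratio was 2.84 (0.891 to 11.8). Ccl5, a chemokine gene, was at 4.31 and 75.6 CPM, with 84.9% of SI UMIs in 1 cell and a ratio of 3.31 without the highest cells. In the control, 1 cell held all 93 Cxcl10 UMIs.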
